A study of Mus musculus with 6 samples.

Results

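The netrins and their receptors were followed in adult mouse brain as 10 genes: the ligand genes Ntn1, Ntn3, Ntn4, Ntng1 and Ntng2, and the receptor genes Unc5a, Unc5b, Unc5c, Unc5d and Dcc. They were taken by gene symbol from a table of 43346 rows, and all 10 had a row. All 10 were also among the 15127 genes with enough reads to be tested. RNA was sequenced from the brain of 3 adult males deficient for Kdm5c, an X-linked gene for a histone demethylase, and of 3 wild-type male littermates. Both genotypes came from crosses of a C57BL/6 mother heterozygous for the deficiency with a 129 father. All 6 mice thus had a parent of each strain. The labels describe neither the allele, the exact age nor the part of the brain dissected, and though they call the wild types littermates they do not say which mice shared a litter or a day of preparation.

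Totals ran from 20221675 to 24555412 reads per mouse, and mice of one genotype differed by more than counting noise (chi-square per gene from 3.56 to 17.64). Kdm5c itself lay between 65.5 and 78.9 CPM (reads scaled to a common library size) with the deficiency and between 77.6 and 84.0 CPM without it. These ranges overlapped, and the level does not by itself check the labels (log2 fold change -0.16, adjusted p = 0.196 by edgeR). Deficient mouse 2 stood apart in markers of cerebellum: 10 such genes summed to 326 CPM in this mouse, to 1573 and 1202 CPM in deficient mice 1 and 3, and to between 1711 and 1944 CPM in wild-type mice. Pan-neuronal markers were abundant in every library, with 5 genes summing to 6071 CPM or more. For the 10 genes and their partners, a value that passed the test or that moved by over 1.5 times without deficient mouse 2 is therefore given without it as well.

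Netrins are laminin-related proteins that steer growing axons. Secreted netrins attract axons through the receptor DCC and repel them through receptors of the UNC5 family, alone or together with DCC, and UNC5 receptors and DCC are also known as dependence receptors, which can trigger cell death when no ligand is bound. The netrin-G proteins are a separate branch: they are anchored to the membrane by a lipid, do not bind DCC or UNC5, and pair instead with the NGL proteins at synapses. In the adult brain these genes stay on in many neurons, and Unc5b and Ntn4 are also known from blood vessels.

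The promoters of Ntn3 and Unc5b are shown from RefSeq (GRCm38.p6) as 250 bases before to 50 bases after the start site, 5′ to 3′ on the strand of the gene, because these were the only 2 of the 10 genes past the test used below. Ntn3 is at chr17:24209338-24209637 on the minus strand and Unc5b at chr10:60831532-60831831 on the minus strand. Capitals mark GC boxes (GGGCGG, searched on both strands).
Ntn3: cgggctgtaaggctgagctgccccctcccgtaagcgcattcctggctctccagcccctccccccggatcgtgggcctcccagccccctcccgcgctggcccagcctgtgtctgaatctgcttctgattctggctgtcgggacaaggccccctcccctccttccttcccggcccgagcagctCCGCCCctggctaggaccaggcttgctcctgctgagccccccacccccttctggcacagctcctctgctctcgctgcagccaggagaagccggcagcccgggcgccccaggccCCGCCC
Unc5b: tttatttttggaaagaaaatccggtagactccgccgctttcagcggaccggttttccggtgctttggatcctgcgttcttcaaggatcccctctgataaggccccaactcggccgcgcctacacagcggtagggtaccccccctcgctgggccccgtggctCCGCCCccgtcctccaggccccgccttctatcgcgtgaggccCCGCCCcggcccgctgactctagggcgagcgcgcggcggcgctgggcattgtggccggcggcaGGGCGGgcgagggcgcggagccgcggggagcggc
The Ntn3 window had 16 CpG dinucleotides and 2 GC boxes, and the Unc5b window 36 CpG dinucleotides and 3 GC boxes. A median promoter held 7 CpG dinucleotides, and 35.7% of 32851 promoters of this length held a GC box. Such windows were searched for 7 of the 10 genes, and Dcc was left out of the search beforehand. None of the 7 windows held an E-box (CACGTG), an E2F motif (TTTCCCGC) or a TATA box (TATAAA), which 7.15%, 1.07% and 13.6% of all promoters held.

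Ntn3, a secreted netrin, was the clearest change among the ligands and among all 10 genes. It had 406, 539 and 474 reads with the deficiency versus 223, 172 and 214 in wild types. Scaled to library size these were 19.1, 22.6 and 21.8 CPM against 9.03, 8.42 and 9.36 CPM. Every deficient mouse was far above every wild-type mouse, and the genotypes did not overlap. The means were 21.2 ± 1.86 and 8.93 ± 0.478 CPM (SD, n = 3 each), a 2.37-fold rise. In bulk tissue a different number of cells of a type and a different amount of RNA per cell cannot be told apart. The log2 fold change, deficient over wild type, was 1.24 ± 0.09 (SE), and edgeR's quasi-likelihood test gave an adjusted p (Benjamini-Hochberg) of 0.000519. A gene is said to pass, to rise or to fall where this adjusted p, which limits the share of false calls over all tested genes, is under 0.05. Leaving out each mouse in turn gave values between 1.19 and 1.32, and Ntn3 passed in all 6 of these fits. The authors' deposited table gives Ntn3 a log2 fold change of -1.04, coded there as wild type over deficient, with an unadjusted p of 5.42e-23.

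**Figure D1:**
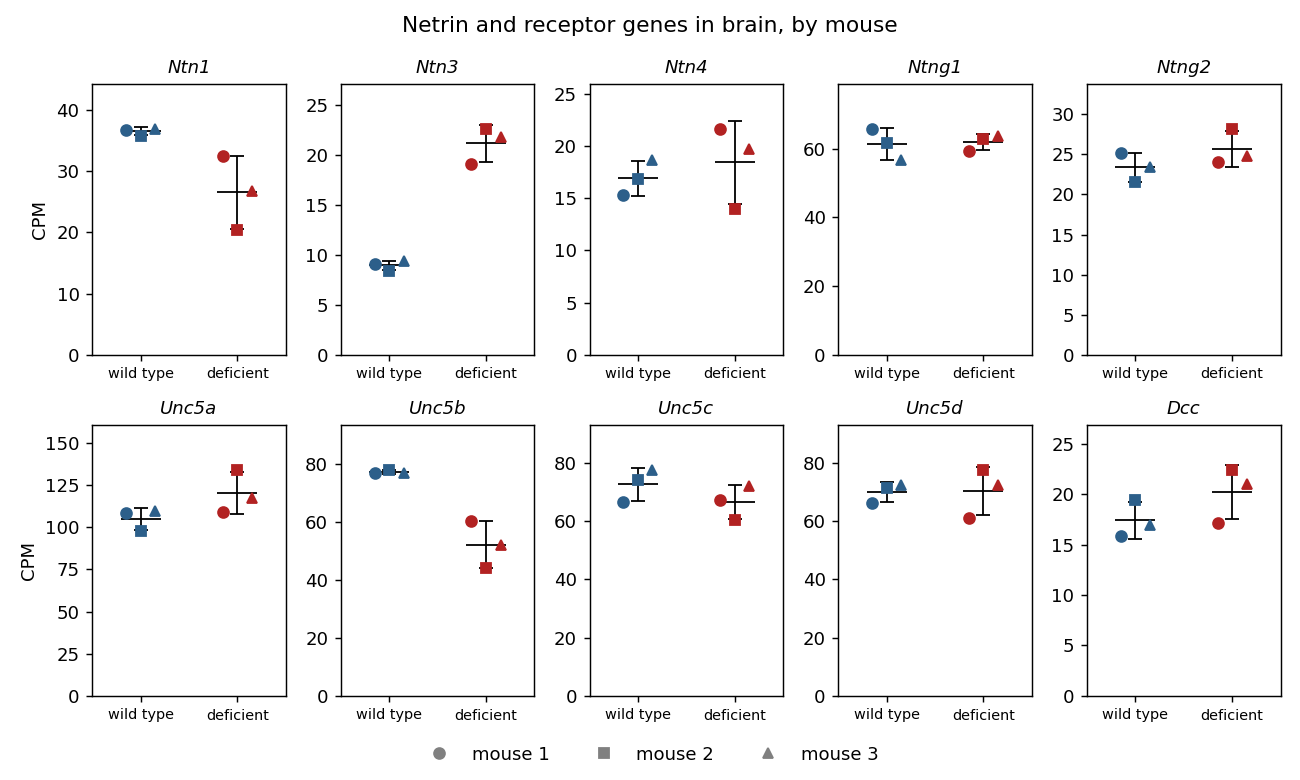
Level of each of the 10 genes in CPM (linear axes from 0), 1 panel per gene, with 1 point per mouse, the mean as a bar and the SD as whiskers (n = 3 per genotype). The deficient mice lie above all wild-type mice for Ntn3 and below all of them for Unc5b and Ntn1; in the other 7 panels the genotypes overlap.

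Ntn3 lies on chromosome 17 at 24203848 to 24209531, minus strand (GRCm38, GENCODE M21). Of its annotated exon bases, 89 (1.74%) are shared with Tbc1d24 on the same strand and 139 (2.72%) with the antisense gene BC028777. Reads from the shared bases cannot be assigned to one gene, and their share of the Ntn3 reads is not known from the share of bases. Tbc1d24, a gene for a protein of vesicle traffic, was far more abundant than Ntn3, with 2314, 3132 and 2607 reads with the deficiency versus 3206, 2730 and 3252 in wild types. Its log2 fold change was -0.17 ± 0.07 (SE; edgeR, adjusted p = 0.185), opposite in sign to that of Ntn3, and the genotypes overlapped. BC028777 had between 1 and 4 reads in each mouse. The nearest other tested genes did not pass either: Atp6v0c, a proton pump subunit gene, was at 0.12, Amdhd2 at 0.06, 1600002H07Rik at -0.42, the cyclin gene Ccnf at 0.13 and the lipid transporter gene Abca3 at -0.07 on the log2 scale. Their adjusted p ran from 0.237 to 0.783 by edgeR, so Ntn3 alone passed among these genes. On the same build Ntn1 lies at chr11:68209364-68400823 (minus strand), Ntn4 at chr10:93640681-93747207 (plus), Ntng1 at chr3:109780040-110144011 (minus) and Ntng2 at chr2:29194541-29253005 (minus).

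Ntn1, the founding netrin of vertebrates, was lower in every deficient mouse but did not pass the test. It had 690, 486 and 582 reads with the deficiency versus 910, 731 and 845 in wild types, which are 32.4, 20.4 and 26.8 CPM against 36.8, 35.8 and 37.0 CPM. The genotypes did not overlap, yet the deficient mice were spread widely and the wild-type mice hardly at all. The SD of the wild-type mice was 0.51 times that of read counting alone, so it understates the spread between mice. In deficient mice it was 5.52 times. The log2 fold change was -0.46 ± 0.14 (SE; edgeR, adjusted p = 0.0872). Deficient mouse 2, the mouse with low cerebellar markers, had the lowest value. Without it the log2 fold change was -0.30 with an adjusted p of 0.0663 by edgeR, and without deficient mouse 1, the highest of the 3, it was -0.63 with an adjusted p of 0.00971 by edgeR. With DESeq2 in place of edgeR Ntn1 passed (adjusted p = 0.0152 by DESeq2's Wald test), as it did without a low-count filter (adjusted p = 0.0469 by edgeR).

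In every deficient mouse Ntn3 was above and Ntn1 below all wild-type mice. Their read ratio therefore could not overlap between genotypes. There were 0.245, 0.235 and 0.253 reads of Ntn3 per read of Ntn1 in wild types versus 0.588, 1.11 and 0.814 with the deficiency. Per kilobase of annotated exon, Ntn3 held 25.4, 38.8 and 30.9% of the summed level of the secreted netrins Ntn1, Ntn3 and Ntn4 with the deficiency versus 15.1, 13.9 and 14.4% in wild types. Ntn1 held 48.2 ± 1.85% in wild-type and 31.5 ± 3.39% in deficient mice (SD, n = 3 each). Ntn4 held 37.4 ± 2.23% and 36.8 ± 3.55% (SD, n = 3 each). These ratios and shares describe the same reads in another form and were not tested.

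Ntn4, a netrin known from basement membranes, varied more among deficient mice than between genotypes. Its levels were 21.7, 14.0 and 19.7 CPM with the deficiency versus 15.3, 16.8 and 18.6 CPM in wild types, so the highest and the lowest value were both from deficient mice. The log2 fold change of 0.12 ± 0.15 (SE) had an adjusted p of 0.656 by edgeR and a 95% interval from -0.22 to 0.47. Without deficient mouse 1 it was -0.01 and without deficient mouse 2, the lowest, it was 0.29.

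The netrin-G genes did not pass the test. Ntng1, for netrin-G1, was at 59.5, 62.9 and 63.8 CPM with the deficiency versus 65.9, 61.7 and 56.7 CPM in wild types. The deficient values lay inside the wild-type range, and the log2 fold change of 0.02 ± 0.06 (SE; edgeR, adjusted p = 0.904) had a 95% interval from -0.13 to 0.16. The direction turned negative without deficient mouse 3 or without wild-type mouse 3, and without deficient mouse 2 the value was 0.0060. Ntng2, for netrin-G2, was at 24.0, 28.2 and 24.8 CPM with the deficiency versus 25.2, 21.5 and 23.5 CPM in wild types. Deficient mouse 2 was the highest of the 6 and wild-type mouse 2 the lowest, and the others were mixed. Its log2 fold change of 0.13 had a 95% interval from -0.06 to 0.33 and was 0.06 without deficient mouse 2. Exons of Ntng2 share 558 bases (13.98% of its own) with 6530402F18Rik on the same strand, which had between 4 and 8 reads in each mouse.

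Among the receptors, Unc5b fell. It had 1289, 1051 and 1134 reads with the deficiency versus 1903, 1595 and 1762 in wild types, or 60.6, 44.1 and 52.2 CPM against 77.0, 78.0 and 77.1 CPM. The wild-type mice were nearly level and every deficient mouse lay below them, with deficient mouse 2 lowest. The SD of the wild-type mice was 0.31 times that of read counting alone, so it understates the spread between mice. In deficient mice it was 5.38 times. The means were 52.3 ± 8.24 and 77.4 ± 0.578 CPM (SD, n = 3 each), so wild-type mice were 1.48-fold higher. The log2 fold change was -0.57 ± 0.10 (SE; edgeR, adjusted p = 0.0228). Without deficient mouse 2 it was -0.46 and still passed (adjusted p = 0.00613 by edgeR), as it did without deficient mouse 1, at -0.68. Without deficient mouse 3 or without wild-type mouse 1, 2 or 3 the value was between -0.56 and -0.57 and the call was lost, at adjusted p of 0.0636, 0.0954, 0.107 and 0.0764 by edgeR. For Unc5b the authors' deposited table holds 0.50 on the log2 scale, wild type over deficient, with an unadjusted p of 3.98e-08.

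Unc5b spans 60762593 to 60831581 on the minus strand of chromosome 10 (GRCm38, GENCODE M21), and no annotated exon of another gene overlaps its exons. Of the 3 nearest tested genes on each side, Pcbd1, an enzyme gene of tetrahydrobiopterin recycling that begins 258 kb away, changed in the opposite direction. It had 0.88 ± 0.14 (SE; edgeR, adjusted p = 0.0199) on the log2 scale and lost its call when wild-type mouse 1, 2 or 3 was left out. The nearest gene, Slc29a3, a nucleoside transporter gene 9.8 kb away, was at -0.06. The hair cell cadherin gene Cdh23 was at -0.56 and 4632428N05Rik, which lies within it, at 0.53, with adjusted p of 0.14 and 0.0963 by edgeR, and Sgpl1 and Tbata were at -0.11 and 0.10.

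**Figure D2:**
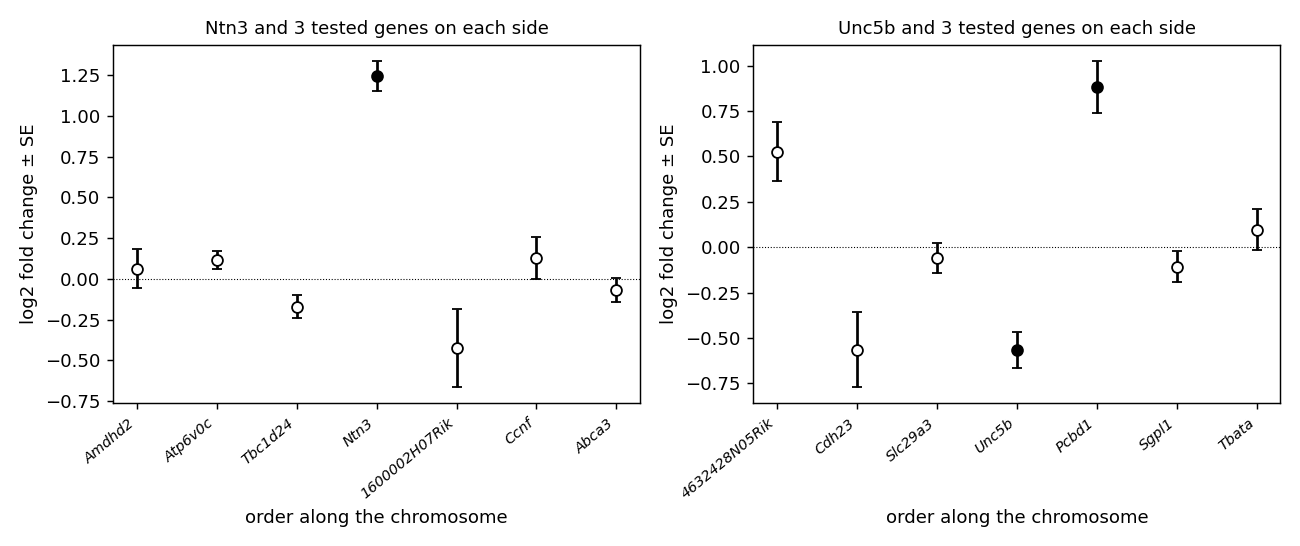
Log2 fold change, deficient over wild type, with SE for Ntn3 and Unc5b and the 3 nearest tested genes on each side, in order of their midpoints along the chromosome; filled points have an adjusted p under 0.05. Ntn3 at 1.24 is the only filled point of its panel, while Unc5b at -0.57 is beside Pcbd1 at 0.88.

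Unc5a, the most abundant receptor gene, had a small positive difference that did not pass. It was at 109, 134 and 117 CPM with the deficiency versus 108, 97.6 and 109 CPM in wild types. Deficient mouse 1 was no higher than wild-type mouse 3, and deficient mouse 2 was the highest. The log2 fold change was 0.19 ± 0.08 (SE; edgeR, adjusted p = 0.174), 0.11 without deficient mouse 2, and 0.26 without deficient mouse 1 (adjusted p = 0.0486 by edgeR), the one fit of those leaving out a mouse in which it passed.

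Unc5c, known from a cerebellar malformation in mice that lack it, and Unc5d, known from migrating cortical neurons, overlapped between genotypes. Unc5c was at 67.4, 60.4 and 72.1 CPM with the deficiency versus 66.4, 74.1 and 77.5 CPM in wild types, with a 95% interval of the log2 fold change from -0.30 to 0.05. Its lowest value was in deficient mouse 2, without which the log2 fold change went from -0.13 to -0.06. Unc5d was at 61.2, 77.6 and 72.3 CPM against 66.1, 71.5 and 72.4 CPM. The deficient mice held both the highest and the lowest value of Unc5d, and its interval ran from -0.18 to 0.20. Its log2 fold change was 0.01 with all mice and -0.07 without deficient mouse 2. Unc5a lies at chr13:54949411-55006018 (plus strand), Unc5c at chr3:141465216-141834924 (plus) and Unc5d at chr8:28646717-29219636 (minus). Exons of Unc5c share 118 bases (0.62%) with the antisense gene Gm15688, and those of Unc5a share 34 bases (0.82%) with Hk3 on the other strand. No source used here gives the strand setting of the counting, so reads of such partners cannot be told apart.

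Dcc, the attractive netrin receptor, had the fewest reads among the receptors. Its counts were 366, 534 and 456 with the deficiency versus 392, 398 and 387 in wild types, or 17.2, 22.4 and 21.0 CPM against 15.9, 19.5 and 16.9 CPM. Deficient mouse 1 lay among the wild-type mice while the other two were above them. The log2 fold change of 0.22 ± 0.11 (SE) had an adjusted p of 0.273 by edgeR and was 0.14 without deficient mouse 2.

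**Figure D3:**
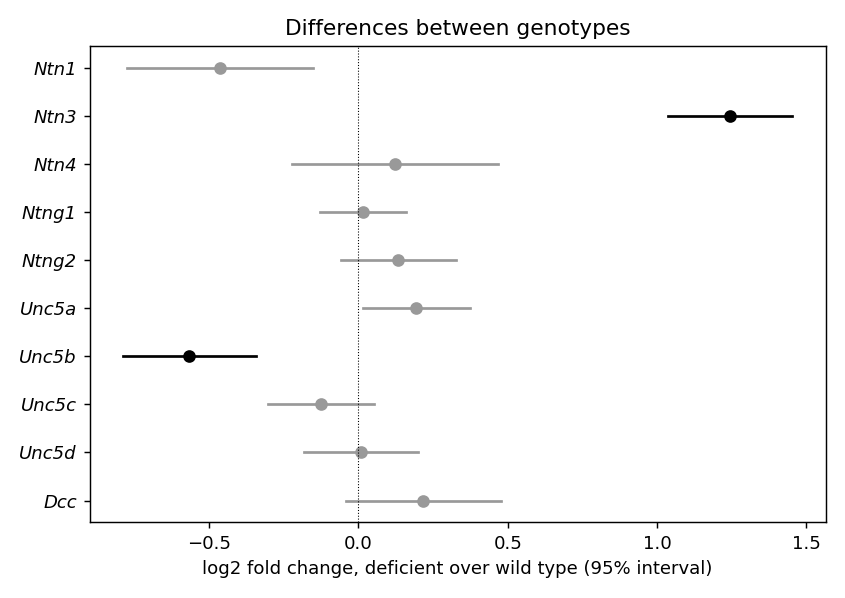
Log2 fold change, deficient over wild type, of the 10 genes with its 95% interval (3 against 3 mice); black marks genes with an adjusted p under 0.05 and grey the others. The interval of Ntn3 lies from 1.04 to 1.45 and that of Unc5b from -0.79 to -0.34.

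Counted over the 10 genes, 1 was higher (Ntn3), 1 was lower (Unc5b) and 8 did not pass, beside 2.45% of all tested genes higher and 2.48% lower. Unadjusted p-values under 0.05 were found for 4 of the 10, Ntn1 and Unc5a being the others, and for 24.9% of all tested genes. The genotypes did not overlap for 3 genes (Ntn1, Ntn3 and Unc5b), where 30.8% of all tested genes were without overlap, so that 3 of 10 is near the background. The median log2 fold change of the 10 genes was 0.07, against 0.00 for all tested genes. How many genes of the whole table passed varied with the mouse left out: 13.6, 4.47 and 1.01% without deficient mouse 1, 2 and 3, and 0.289, 0.346 and 0.648% without wild-type mouse 1, 2 and 3, while DESeq2 called 8.31% with all mice. Ntn3 passed in the fits with the smallest shares as well as in the others.

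**Figure D4:**
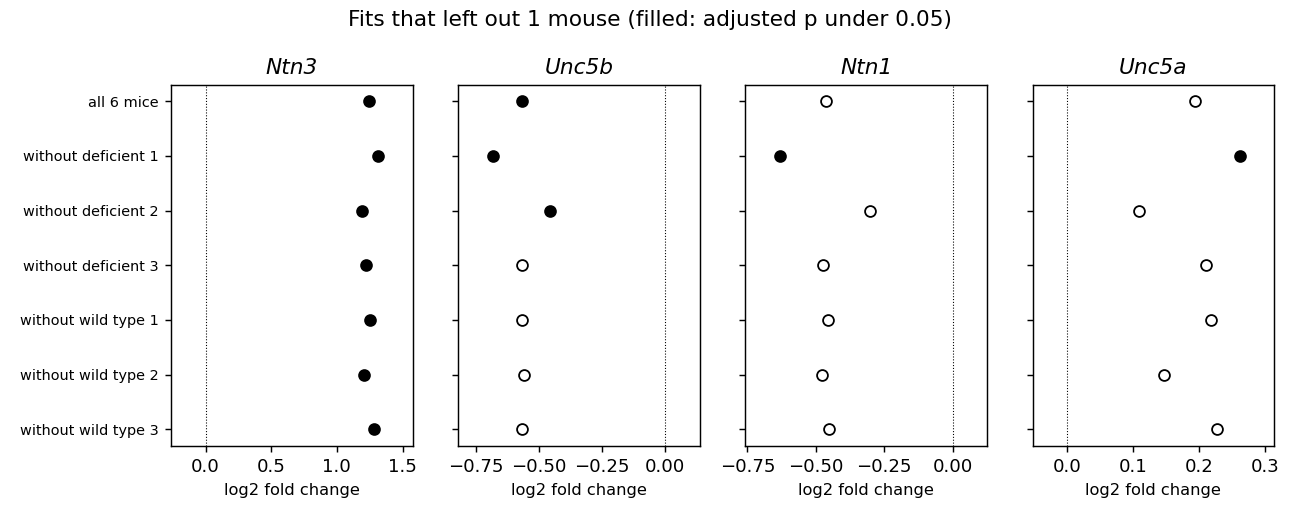
Log2 fold change of Ntn3, Unc5b, Ntn1 and Unc5a with all 6 mice and with each mouse left out in turn; filled points have an adjusted p under 0.05. Ntn3 stays between 1.19 and 1.32 and is filled throughout, whereas Unc5b is filled in 2 of the 6 fits and Ntn1 and Unc5a in 1 each.

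Deficient mice also differed in how far they lay from the wild-type mean. Deficient mouse 2 was the farthest of the 3 for 7 of the 10 genes, deficient mouse 1 for Ntn4 and Unc5d, and deficient mouse 3 for Ntng1. For Unc5b the log2 distances from the wild-type mean were -0.35, -0.81 and -0.57 in deficient mice 1, 2 and 3, and for Ntn1 they were -0.17, -0.84 and -0.45. For Ntn3 they were 1.10, 1.34 and 1.29, a much narrower spread. For 6 of the 10 genes (Ntn1, Ntn3, Ntng2, Unc5a, Unc5b and Dcc) deficient mouse 1 was nearest, mouse 3 next and mouse 2 farthest. Summed markers of cerebellum, thalamus, cortical excitatory neurons and neurons in general kept this order, and sums of the other marker lists did not. Deficient mice 1 and 2 were also the most unlike pair within a genotype over all genes compared (chi-square per gene 17.64). How often all tested genes show this order, or deficient mouse 2 farthest, is not given here, so both counts lack a background.

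Levels of different genes were compared per kilobase of annotated exon, as CPM per kb. In wild-type mice Unc5a was highest at 25.2 ± 1.55, followed by Unc5b at 12.4 ± 0.0924 (SD, n = 3 each). Unc5d and Ntng1 came next at 7.59 ± 0.366 and 7.45 ± 0.557, and then Ntng2 and Ntn1 at 5.86 ± 0.457 and 5.82 ± 0.104 (SD, n = 3 each). Within each of these pairs the difference was smaller than the spread between mice. Ntn4 was at 4.52 ± 0.446, Unc5c at 3.80 ± 0.297, Ntn3 at 1.75 ± 0.0936 and Dcc at 1.32 ± 0.141 (SD, n = 3 each). In deficient mice Unc5a, Unc5b, Unc5d, Ntng1 and Ntng2 were again highest in that order and Dcc lowest, while Ntn3 moved up to 4.14 ± 0.363 CPM per kb, level with Ntn1 at 4.23 ± 0.959 (SD, n = 3 each). The order depends on the length used: with the longest annotated transcript in place of all exons, Ntng2 (12.0) and Ntng1 (11.0) stood above Unc5d (7.59) in wild-type mice, and Ntn3 (1.77) and Dcc (1.69) were still lowest. On that scale Unc5b was second in wild types at 13.2, and in deficient mice, at 8.91, it was below Ntng2 (13.1) and Ntng1 (11.1).

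**Figure D5:**
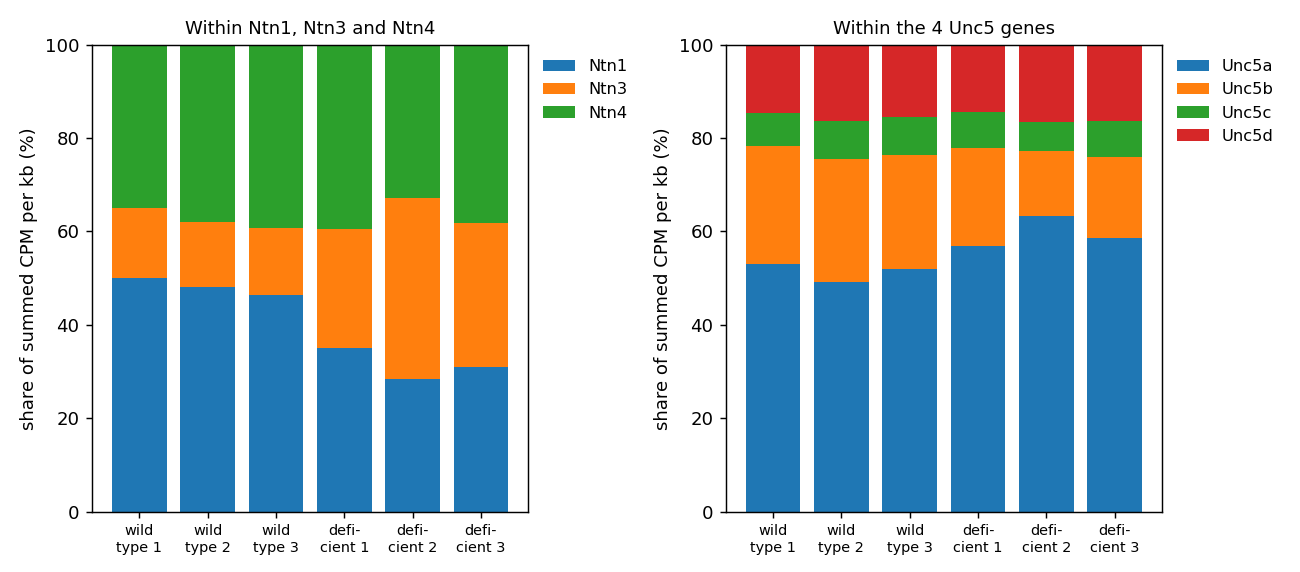
Share of each gene (percent, stacked bars from 0) in the summed CPM per kb of the 3 secreted netrins (left) and of the 4 UNC5 genes (right), 1 bar per mouse. The part of Ntn3 is 15.1% or less in wild-type and 25.4% or more in deficient mice, and that of Unc5b is 24.4% or more in wild-type and 21.0% or less in deficient mice.

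Within the UNC5 family, Unc5b held 25.3 ± 0.923% of the summed level per kb in wild-type and 17.4 ± 3.57% in deficient mice (SD, n = 3 each). Unc5a held 51.5 ± 1.95% and 59.6 ± 3.33% (SD, n = 3 each). There were 1.41, 1.25 and 1.42 reads of Unc5a per read of Unc5b in wild types versus 1.80, 3.04 and 2.25 with the deficiency. Unc5c held 7.76% in wild-type and 7.23% in deficient mice, and Unc5d 15.5% and 15.8%.

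Markers of cell types and regions in which these genes are known were read beside them. Of 10 endothelial markers none passed (edgeR), none was at 0, and their sum was 261 to 301 CPM with the deficiency versus 260 to 267 CPM in wild types, which overlapped. Unadjusted p-values under 0.05 were found for 3 of them (edgeR), near the 24.9% of all tested genes, and DESeq2 called none. Of 8 mural cell markers none passed with edgeR, 2 had an unadjusted p under 0.05 and DESeq2 called 2. Their sums were 223 to 228 CPM with the deficiency versus 178 to 217 CPM in wild types, without overlap. This separation rested on Vtn, at 79.5, 76.6 and 74.7 CPM with the deficiency versus 68.3, 57.1 and 68.2 CPM in wild types.

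Regional markers differed more in sum. All 10 cerebellar markers had negative log2 fold changes, with a median of -0.96. None of them passed with edgeR or DESeq2, 2 had an unadjusted p under 0.05, and none was at 0 in all mice. Of 8 thalamic markers none passed with either tool and 2 had an unadjusted p under 0.05, with sums of 380 to 515 CPM with the deficiency versus 519 to 590 CPM in wild types. The separation of these sums rested on Rora, a gene also known from cerebellum: the other 7 thalamic markers summed to 268 to 316 CPM against 280 to 339 CPM and overlapped. Deficient mouse 2 had the lowest sum of both lists. Of 10 oligodendrocyte markers 1 was lower with edgeR, and the sums were 5789 to 7309 against 7390 to 8362 CPM, again without overlap.

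Sums of the other marker lists overlapped between genotypes. They were 1332 to 1728 CPM with the deficiency versus 1267 to 1476 CPM in wild types for 9 cortical excitatory markers, 8 of them with a positive log2 fold change and with a median of 0.22, and 143 to 196 against 153 to 177 CPM for 8 midbrain dopamine markers, of which 6 were tested. For 6 choroid plexus markers they were 600 to 901 against 796 to 933 CPM. With edgeR none of these passed. Unadjusted p-values under 0.05 were found for 5 of the 9 cortical markers and for 0 in either of the others, beside 24.9% of all tested genes. DESeq2 called 1 cortical marker and 0 of the others. All 5 pan-neuronal markers had positive log2 fold changes, with sums of 6201 to 7151 against 6071 to 6414 CPM. None passed with edgeR, 1 had an unadjusted p under 0.05 and DESeq2 called 1. The part of these cell type and regional differences in the values of the 10 genes was not tested. Without deficient mouse 2, the difference of Ntn3 was 1.19 and that of Unc5b -0.46, both past the threshold. Summed cerebellar markers were also lower in the other deficient mice. Deficient mice 1 and 3 summed to 1573 and 1202 CPM, below the 1711 to 1944 CPM of wild-type mice.

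Genes that act with the 10 were read from 6 lists, in which edgeR called none. The counts of unadjusted p under 0.05 in these lists stand beside 24.9% of all tested genes. Summed levels overlapped between genotypes except in the lists of other ligands and of UNC5 effectors. The other ligands summed to 233.2 to 265.3 CPM with the deficiency versus 227.7 to 233.1 CPM in wild types. For the effectors the sums were 1697.5 to 1741.7 against 1638.1 to 1667.1 CPM. These sums were not tested. Of 5 family members and co-receptors outside the 10 genes, 1 had an unadjusted p under 0.05 and DESeq2 called none. Mcam, a vascular adhesion receptor, and Dscam, an adhesion molecule of the immunoglobulin family, had the smallest p-values. Mcam was at -0.41 ± 0.15 (SE) and Dscam at 0.12 ± 0.06 (SE) on the log2 scale, with adjusted p of 0.142 and 0.28 by edgeR, and Dscam was at 0.07 without deficient mouse 2. Neo1, for the DCC relative neogenin, had 3719 to 4129 reads with the deficiency versus 3921 to 4067 in wild types, at 0.01 ± 0.07 (SE). The median of this list was 0.01.

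On the netrin-G side, 6 of 7 listed genes were tested and none passed with edgeR or DESeq2 (2 with an unadjusted p under 0.05), with a median log2 fold change of 0.06. Lrrc4c, the gene of the netrin-G1 partner NGL-1, was at 0.23 ± 0.09 (SE) and Dlg4, the gene of the synaptic scaffold PSD-95, at 0.19 ± 0.08 (SE), with adjusted p of 0.17 and 0.179 by edgeR. Without deficient mouse 2 both were at 0.12. Lrrc4, for the netrin-G2 partner NGL-2, had at most 1 read in any mouse and was not tested. How reads were assigned to genes is not known, so this low count does not show that Lrrc4 is absent from the brain. Of 8 other ligands of these receptors 7 were tested and none passed with either tool (2 with an unadjusted p under 0.05), with a median of 0.14. Flrt2, whose product binds UNC5 receptors, was at 0.24 ± 0.09 (SE) and the glypican gene Gpc3 at 0.36 ± 0.14 (SE), with adjusted p of 0.149 and 0.165 by edgeR, and Flrt2 was at 0.16 without deficient mouse 2.

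Intracellular partners were also without a call by edgeR. Of 25 genes listed downstream of DCC, among them adaptors and kinases, all were tested. Of these, 5 had an unadjusted p under 0.05 by edgeR and none passed, with a median of -0.02. The adaptor gene Nck2 was at 0.22 ± 0.06 (SE) and Ptk2, the gene of focal adhesion kinase, at 0.22 ± 0.07 (SE), both without overlap between genotypes and with adjusted p of 0.0838 and 0.0853 by edgeR. Other genes of this list without overlap lay in either direction, and 30.8% of all tested genes were without overlap. DESeq2 called 1 of the 25, Ptk2 (adjusted p = 0.0433). Of 11 effectors of UNC5 and dependence receptor signalling none passed with either tool and 2 had an unadjusted p under 0.05, with a median of 0.03. Maged1, whose product binds UNC5A, was at 0.15 ± 0.05 (SE) and the death-associated kinase gene Dapk1 at 0.23 ± 0.10 (SE), with adjusted p of 0.12 and 0.194 by edgeR. Of 6 genes for enzymes that cleave DCC none passed with either tool and 0 had an unadjusted p under 0.05, with a median of 0.01, and the metalloproteases Adam10 and Adam17 had the smallest p-values, with log2 fold changes of 0.07 and -0.10. Without deficient mouse 2 these were 0.05 and -0.03. Over the whole table the median was 0.00.

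Among the genes whose log2 CPM followed Ntn3 most closely over the 6 mice, out of 13961 genes with at least 1 CPM on average, were the scavenger receptor gene Scarf2 (Pearson r = 0.997) and the mTOR complex gene Mapkap1 (r = 0.994). Scarf2 rose, by 1.85 on the log2 scale (adjusted p = 0.00018 by edgeR), and Mapkap1 did not pass. For Unc5b the closest were Plxdc1 (r = 0.999), Fcer2a (r = 0.999) and Ccdc171 (r = 0.998), at -0.54, -0.55 and -0.27, of which Plxdc1 passed. These correlations rest on 6 points that share libraries and the split by genotype, and they were chosen as the highest of all.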

How the data were processed

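RNA of 6 brains (3 per genotype, grouped by sample title) was sequenced from TruSeq libraries, per the labels' protocols. The authors deposited 1 raw count per gene symbol and mouse. Further columns the authors deposited are a normalised mean signal per gene, log2 fold changes (wild type over deficient) and their standard errors, the Wald score, and the p-value. The submitters' processing notes name DESeq2 and GRCm38; for the aligner, counter and annotation the sources used here give nothing. Symbols were matched to GENCODE M21 (39391 of 43344 exactly, 951 by synonym) for positions, lengths and overlaps.

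The tests used edgeR 4.0.16 under R 4.3.3: default expression filter (minimum count 10, minimum total 15), trimmed mean of M-values, quasi-likelihood test on genotype alone, and Benjamini-Hochberg adjustment over 15127 genes with a threshold of 0.05. CPM use the scaled library totals. Standard errors come from the F statistic. Alternatives used DESeq2 1.42.0, limma 3.58.1 (voom), other scalings, filters and thresholds, the replicate number as a block, GC and length offsets, and leaving out each mouse. Scripts were tested on simulated data. P-values set the difference between genotypes against the spread between mice of these groups, which edgeR moderates with information from all tested genes. Counting error for the members was at most 7.63% of a value.

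The 10 genes and the partner and marker lists were chosen with earlier results of these data known. Named genes are the 10 members, the partners that passed or, in each list, the 2 with the smallest p-values, genes with overlapping exons, the 3 tested neighbours on each side of a changed member, and the 3 genes most like it, of which 1 is not reported here. Neo1 and Lrrc4 were added to these after their values were seen. Thalamic sums without Rora and the levels of Vtn were added after seeing the data. No protein sequence was used here.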

Additional observations from a re-analysis of the deposited data

How the results depend on the processing

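Over 9 other settings and 6 fits that each left out 1 mouse, Ntn3 was higher and past the threshold in all of them, with log2 fold changes from 1.19 to 1.32 and adjusted p up to 0.0121. The count of higher genes among the 10 ranged from 1 to 2 when a mouse was left out and was 1 in the other settings. The count of lower genes, 1 in the main analysis, ranged from 0 to 2 when a mouse was left out. It was 2 without a low-count filter, 2 with DESeq2 and 2 at an adjusted p under 0.1, Ntn1 being the gene added. It was 0 at an adjusted p under 0.01. It was also 0 with the replicate number as a block, where Unc5b had -0.58 (adjusted p = 0.0741 by edgeR) and 58 of all genes passed against 746 without the block. The labels do not say that equal numbers mark a shared litter or day, and deviations of same-numbered mice correlated at -0.0604, -0.0602 and 0.14, so the numbers were not taken to pair the mice. Deficient mice 1 and 2 correlated best with a wild-type mouse of another number.

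Directions turned for genes close to no difference. Unc5d was at -0.0066 without scaling of the libraries. Leaving out 1 mouse gave -0.067 to 0.10 for Unc5d, -0.0072 to 0.29 for Ntn4, -0.037 to 0.072 for Ntng1, -0.0018 to 0.19 for Amdhd2, -0.12 to 0.016 for Abca3 and -0.11 to 0.0080 for Slc29a3. The cause was not tested. The largest shift of the median of all genes by a scaling was -0.0139 on the log2 scale. The number of all genes past the threshold was 1121 without a low-count filter and 1208 with DESeq2, and it ran from 44 to 2098 when a mouse was left out.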
